A study of Mus musculus with 5 samples.

Results

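The 10 genes described here encode transcription factors of the ETS family, and their messenger RNA was followed in lymph node lymphatic endothelium (lymphatic endothelial cells, LECs) of mice. The genes were taken by name (Ehf, Elf1, Elf3, Elf4, Ets1, Ets2, Erg, Fli1, Elk3 and Etv6), as ETS genes known mainly from endothelium or epithelium, out of 27843 genes in the count table. All 10 had reads in every library and passed the filter on low counts. They were chosen by name with the read counts of this same knockout against control contrast already known, so their differences between the groups are given as a description, with no p-value, and where a count of them past a threshold is given it is a description too and no test. The other 17 genes of the family were taken whole, and 15 of them passed the filter. The lists of markers and target genes below were also chosen with earlier results of these data known, so their counts are descriptions too.

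The knockout (KO) group was 2 libraries from Ccl19 Cre Rankl flox/flox mice, in which Cre removes RANKL (Tnfsf11) from stromal cells that have expressed Ccl19. Levels are given in CPM, read counts scaled to library size with TMM factors. The control (WT) group was 3 libraries from littermates with Rankl flox/flox and no Cre. All mice were 8 weeks old on a C57BL/6 background, and every mouse carried the floxed alleles, so the WT label stands for an unrecombined floxed control. In the sorted LECs the RANKL gene Tnfsf11 was barely detected, with means of 0.0822 CPM in KO and 0.254 CPM in WT, so its reads check the labels poorly. Tnfrsf11a, which encodes the RANK receptor, averaged 225 CPM in KO and 220.3 CPM in WT. The number of animals behind a library is not given in the labels, so the spread between libraries may in part be technical. Libraries held 53301671 and 59725200 counts in the KO group, against 52839375 to 70171307 in the WT group. Of the 9 lymphatic endothelial markers (Prox1, Lyve1, Pdpn, Pecam1, Flt4, Cdh5, Reln, Mmrn1 and Ccl21a), none was near 0 in any library, and their summed level was 10070 to 12013 CPM in KO and 9582 to 10726 CPM in WT. At an adjusted p under 0.05 by edgeR's quasi-likelihood test, Mmrn1 and Ccl21a rose and Prox1 fell within that list. These are 33.3% of the list, against 7.24% of all genes tested.

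ETS factors share a DNA-binding domain that reads a GGAA core, and members differ in partners, in regulation by ERK phosphorylation and in whether they activate or repress. Erg and Fli1 maintain endothelial identity, and Ets1 and Ets2 are activators that respond to ERK signalling. Ehf and Elf3 belong to the epithelial branch of the family, whereas Etv6 and Elk3 act mostly as repressors. RANKL signals through RANK to NF-kB and to MAP kinases, and in the gut epithelium it induces the ETS gene Spib during the formation of M cells.

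Ets1 and Fli1 were the most abundant ETS transcripts in LECs of either group. To compare genes with each other, CPM was divided by exon length in kb, a length-scaled level. Ets1 stood at 104 ± 12.6 CPM per kb in KO (SD, n = 2) and 126 ± 4.50 CPM per kb in WT (SD, n = 3). Of the summed length-scaled level of all 27 family genes, Ets1 made up 26.1% and 28.7% in KO libraries 1 and 2, against 29.4%, 28.1% and 29.5% in WT libraries 1, 2 and 3. Its level placed it above 97.1% of the 15821 tested genes with a known exon length in KO, and above 97.8% in WT. Fli1 followed at 79.8 ± 1.61 CPM per kb in KO and 84.3 ± 5.33 CPM per kb in WT, and its libraries did not overlap those of Ets1 or of the next gene in either group.

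The third place went to different genes in the 2 groups. In KO it was held by Elk3 at 32.7 ± 2.01 CPM per kb, whose libraries overlapped those of Spib (30.8 ± 5.62). In WT it was held by Spib at 54.0 ± 5.34 CPM per kb, with no overlap with the next gene, Elf1 (28.0 ± 0.981). Elf1, Ets2 and Elk3 lay close together in WT, where Elf1 overlapped Ets2 and Ets2 overlapped Elk3. Etv6 came next, apart from Elf1 in KO and from Elk3 in WT, with 16.7 ± 3.02 CPM per kb in KO and 21.2 ± 0.686 CPM per kb in WT.

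Erg and Elf4 were far below Ets1. Erg stood at 4.69 ± 0.172 CPM per kb in KO and 9.54 ± 0.704 CPM per kb in WT, and Elf4 at 7.39 ± 1.76 CPM per kb in KO and 8.03 ± 0.378 CPM per kb in WT. In WT, Erg overlapped Etv3 above it and Gabpa below it. In KO it lay under Elf4, and the ranges of these 2 genes did not overlap there. Ehf was at 0.125 ± 0.142 CPM per kb in KO, within the range of barely detected genes such as Spic and Spdef, and at 1.82 ± 1.00 CPM per kb in WT, next to Erf and apart from Spic. Elf3 was low in both groups, at 0.363 ± 0.371 CPM per kb in KO and 0.140 ± 0.0992 CPM per kb in WT.

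**Figure D1:**
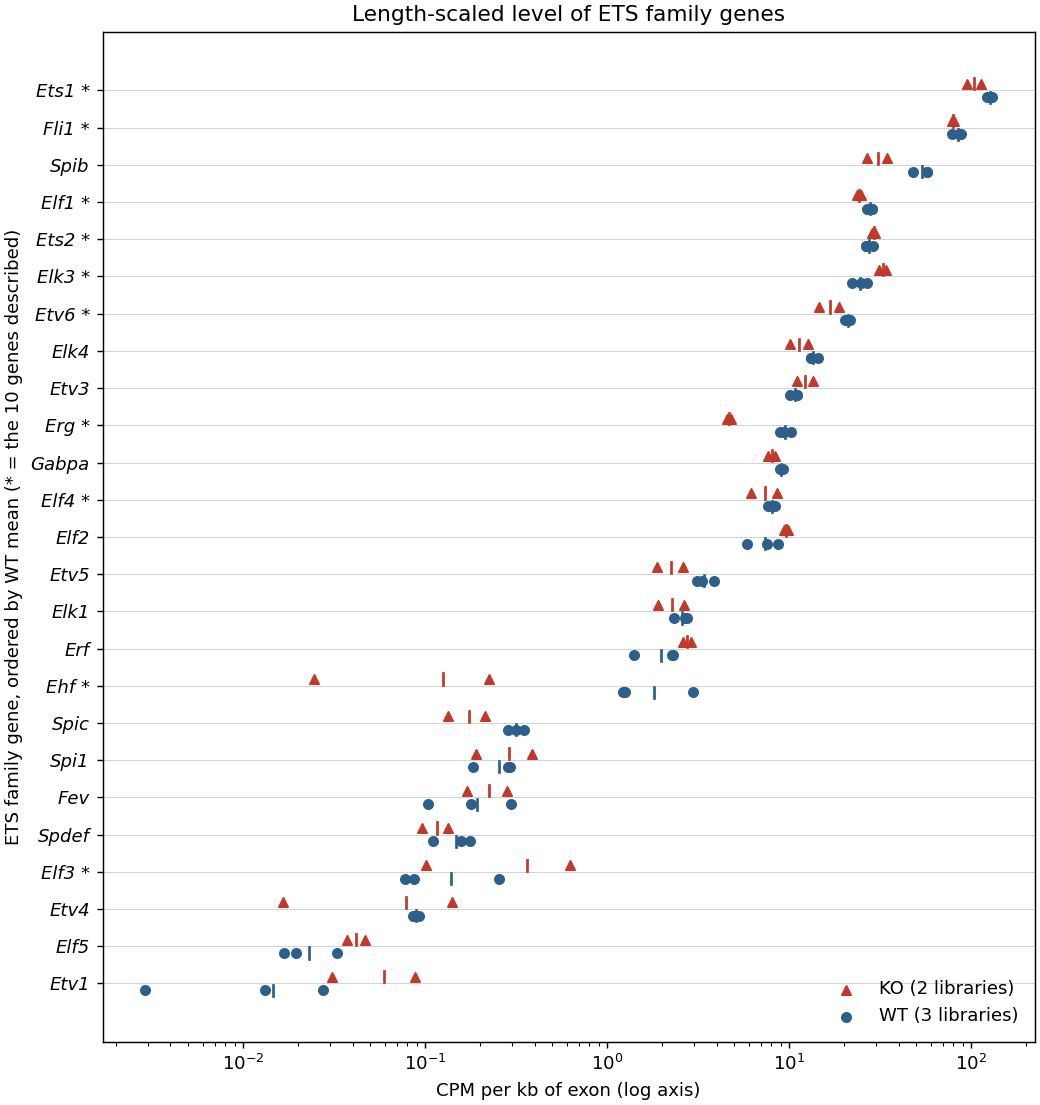
Length-scaled level (CPM per kb of exon, log axis) of the 25 tested ETS family genes, ordered by the WT mean, with 1 point per library (triangles, 2 KO; circles, 3 WT) and a bar at each group mean; a star marks the 10 genes described. Ets1 and Fli1 lead in both groups, the KO points of Spib, Erg and Ehf lie left of their WT points, and the lowest genes scatter widely.

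Of the 10 genes, Ehf and Erg were lower in KO at an adjusted p under 0.05 in the fit across all genes, and 0 were higher. Over all 15874 genes tested, the same threshold called 7.24%, with 3.25% higher and 3.99% lower in KO, and nothing is read from the members' count against it because their contrast was known when they were chosen. Both KO libraries lay below all WT libraries for 5 genes (Ehf, Elf1, Ets1, Erg and Etv6) and above them for Elk3. Over all genes 22.5% lay below in this way and 22.8% above. Together these are 6 of 10 genes with no overlap, and 45.4% of all genes. The 4 others (Elf3, Elf4, Ets2 and Fli1) overlapped. Ehf left the count without KO library 2 or without any 1 of the WT libraries, and also with library totals alone or no filter on low counts, and Erg left it without WT library 3, so that 0 of the 10 passed there. With DESeq2 the count was 3, with Elk3 higher, and with no filter it was 2, with Erg lower and Elk3 higher. Over all genes DESeq2 called 1204 of 14380 higher and 1457 lower. The fit with no filter called 649 of 25956 higher and 886 lower. The median log2 fold change, KO minus WT, was -0.17 over the 10 genes and 0.00 over all genes tested. Counts from bulk sorted cells do not tell fewer cells with a transcript from less of it per cell.

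**Figure D2:**
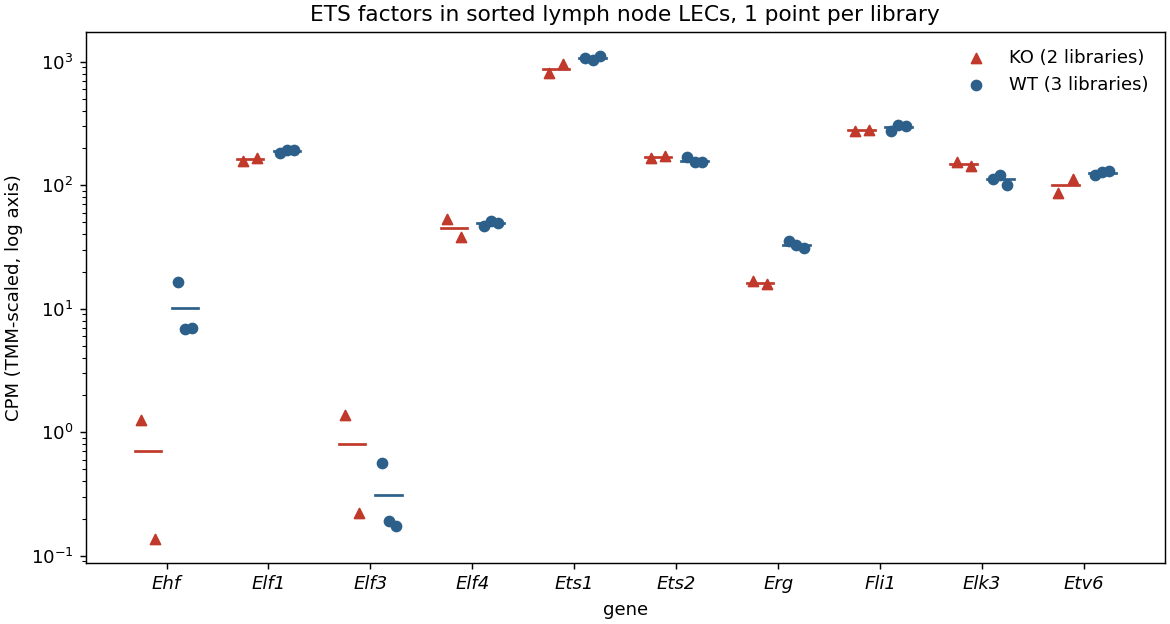
CPM (log axis) of the 10 ETS genes, 1 point per library (triangles, 2 KO, left; circles, 3 WT, right), with a bar at each group mean. The KO points of Ehf and Erg lie clear of the WT points, at 0.137 and 1.26 CPM for Ehf and at 15.8 and 16.7 CPM for Erg, and those of Ets2, Fli1, Elf4 and Elf3 overlap them.

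Erg, which maintains endothelial identity and vessel stability, had 16.7 and 15.8 CPM in KO libraries 1 and 2, against 35.7, 32.5 and 30.9 CPM in WT libraries 1, 2 and 3. The groups were far apart, and the libraries within each were close together, with 913 and 921 reads in KO and 2537, 2032 and 1607 reads in WT. Erg averaged 16.2 ± 0.595 CPM in KO (SD, n = 2) and 33.1 ± 2.44 CPM in WT (SD, n = 3), and was 50.8% lower in KO. Its log2 fold change, KO minus WT, was -1.02 ± 0.11 (SE). Across every alternative processing and with each library left out, the value ranged from -1.07 to -0.96.

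Erg lies on chromosome 16 (ENSMUSG00000040732, 95359169 to 95586593, minus strand, mm10), 115 kb from Ets2, its neighbour in the family (95702075 to 95721051, plus strand). Ets2 did not share the difference. It had 165 and 172 CPM in KO libraries 1 and 2, against 168, 154 and 154 CPM in WT libraries 1, 2 and 3, and its log2 fold change was 0.09 ± 0.09 (SE). The ratio of Ets2 to Erg within a library does not depend on library scaling. On the log2 scale it was 3.30 and 3.44 in KO, against 2.23, 2.24 and 2.31 in WT, a difference of 1.11.

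RefSeq lists 3 transcription starts of Erg on the build of the counts (GRCm38.p6), and counts per gene do not say which start a read came from. The 300-base windows below run from 250 bases before each start to 50 after it, in the direction of transcription. They are shown because the groups were far apart for Erg and its replicates close together. Capitals mark the ETS core GGAA or its reverse complement TTCC.
Erg start 1 (chr16:95586544-95586843, minus strand): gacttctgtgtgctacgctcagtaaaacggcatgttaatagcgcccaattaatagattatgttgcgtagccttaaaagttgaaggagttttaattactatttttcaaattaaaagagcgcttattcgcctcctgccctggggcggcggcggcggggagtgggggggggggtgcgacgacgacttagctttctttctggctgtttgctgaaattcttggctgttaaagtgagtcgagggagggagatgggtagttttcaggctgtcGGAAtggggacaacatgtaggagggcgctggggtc
Erg start 2 (chr16:95530316-95530615, minus strand): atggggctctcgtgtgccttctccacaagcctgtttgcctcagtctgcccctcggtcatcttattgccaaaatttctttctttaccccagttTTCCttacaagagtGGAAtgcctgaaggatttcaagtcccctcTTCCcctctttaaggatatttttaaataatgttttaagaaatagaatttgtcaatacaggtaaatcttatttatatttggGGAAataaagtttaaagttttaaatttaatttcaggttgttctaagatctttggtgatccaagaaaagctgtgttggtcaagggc
Erg start 3 (chr16:95459299-95459598, minus strand): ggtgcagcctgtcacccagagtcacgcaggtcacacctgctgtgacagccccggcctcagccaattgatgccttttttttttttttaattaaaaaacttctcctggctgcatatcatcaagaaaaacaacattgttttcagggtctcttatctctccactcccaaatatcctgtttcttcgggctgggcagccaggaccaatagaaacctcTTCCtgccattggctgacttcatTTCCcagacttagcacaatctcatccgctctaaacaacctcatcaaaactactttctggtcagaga
The windows held 1, 4 and 2 cores at starts 1, 2 and 3. Of 32851 mouse promoter windows of the same length, 96% held at least 1 core on either strand, with a median of 3. None of the 3 held CCGGAA, the longer form of the core, which contains GGAA and was found in 14.9% of all windows, and none held the kappaB consensus, found in 8.46%.

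Ehf, known as an epithelial ETS factor, had 1.26 and 0.137 CPM in KO libraries 1 and 2 (69 and 8 reads), against 16.6, 6.84 and 6.98 CPM in WT libraries 1, 2 and 3 (1179, 427 and 363 reads). Every KO library was below every WT library, and both groups were uneven inside. The KO libraries differed 9.16-fold from each other and WT library 1 was 2.43-fold above the lowest WT library. Exact Poisson 95% intervals, which cover counting error only, were 0.980 to 1.59 CPM and 0.0594 to 0.271 CPM in KO libraries 1 and 2, so counting error does not span the gap between them. Ehf averaged 0.699 ± 0.794 CPM in KO (SD, n = 2) and 10.1 ± 5.59 CPM in WT (SD, n = 3), and its log2 fold change was -3.87 ± 0.84 (SE). It was -6.19 without KO library 1, -3.02 without KO library 2 and -3.31 without WT library 1.

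Ehf lies on chromosome 2 (ENSMUSG00000012350, 103263433 to 103303278, minus strand), 108 kb from Elf5, another epithelial ETS gene (103411688 to 103450989, plus strand). Elf5 was barely detected, at 0.219 and 0.275 CPM in KO libraries 1 and 2, against 0.0985, 0.192 and 0.115 CPM in WT libraries 1, 2 and 3. These are 12 and 16 reads in KO and 7, 12 and 6 in WT. The neighbour was therefore near the detection limit in both groups, and its log2 fold change of 0.86 ± 0.60 (SE) did not pass the test (adjusted p = 0.41 by edgeR's quasi-likelihood test).

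Elf3, the other epithelial member, is induced by inflammatory signals in epithelia and did not follow Ehf. It had 1.39 and 0.223 CPM in KO libraries 1 and 2, against 0.563, 0.192 and 0.173 CPM in WT libraries 1, 2 and 3. Only KO library 1 stood above all WT libraries, and the groups overlapped. Its log2 fold change of 1.35 ± 0.85 (SE) became -0.49 without KO library 1 and 2.13 without KO library 2. A gene called Gm26642 overlaps 7.31% of the exon bases of Elf3 on the opposite strand and had 4 reads over all libraries.

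Epithelial genes were set beside Ehf and Elf3 because the sort could hold such cells. Of 27 epithelial regulators and structural genes, 19 were tested, and 12 stayed under 1 CPM in every library. Among those tested 1 rose and 1 fell, or 10.5% against 7.24% of all genes. The list summed to 161 to 168 CPM in KO and 152 to 200 CPM in WT, most of it from the protease inhibitor gene Spint2. Without Spint2 the sums were 68.0 and 26.8 CPM in KO libraries 1 and 2, against 37.5, 23.5 and 21.7 CPM in WT libraries 1, 2 and 3. The 6 keratin genes of the list summed to 31.6 and 1.38 CPM in KO libraries 1 and 2, against 8.85, 1.43 and 2.83 CPM in WT libraries 1, 2 and 3. Keratin levels and Elf3 were both highest in KO library 1 and next highest in WT library 1. Ehf was highest in WT library 1 but was lower in KO library 1 than in WT library 2, where the keratin sum was far lower. Their part in the values of Ehf and Elf3 was not tested.

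Among epithelial genes the adhesion molecule Epcam rose, with 4.33 and 5.09 CPM in KO libraries 1 and 2, against 1.75, 0.993 and 1.65 CPM in WT libraries 1, 2 and 3 (log2 fold change 1.68 ± 0.30, SE, adjusted p = 0.026 by edgeR's quasi-likelihood test). The protease inhibitor gene Spint1 fell to 0.475 and 0.670 CPM in KO, against 1.75, 3.73 and 1.87 CPM in WT (-2.09 ± 0.46, SE, adjusted p = 0.045 by edgeR's quasi-likelihood test). Both calls were lost without each WT library in turn, and that of Spint1 also without each KO library. Cldn7, a claudin, and Spint2 had log2 fold changes of 1.17 ± 0.50 and -0.37 ± 0.16 and did not pass. Regulators of epithelial identity were uneven. Grhl2, Esrp1 and Ovol2 had 0 reads in at least 3 libraries each, whereas Klf5 had 8.82 and 8.56 CPM in KO libraries 1 and 2, against 10.8, 5.88 and 6.52 CPM in WT libraries 1, 2 and 3, and Grhl1 had 1.52 and 1.86 CPM in KO, against 1.25, 1.44 and 2.35 CPM in WT.

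**Figure D3:**
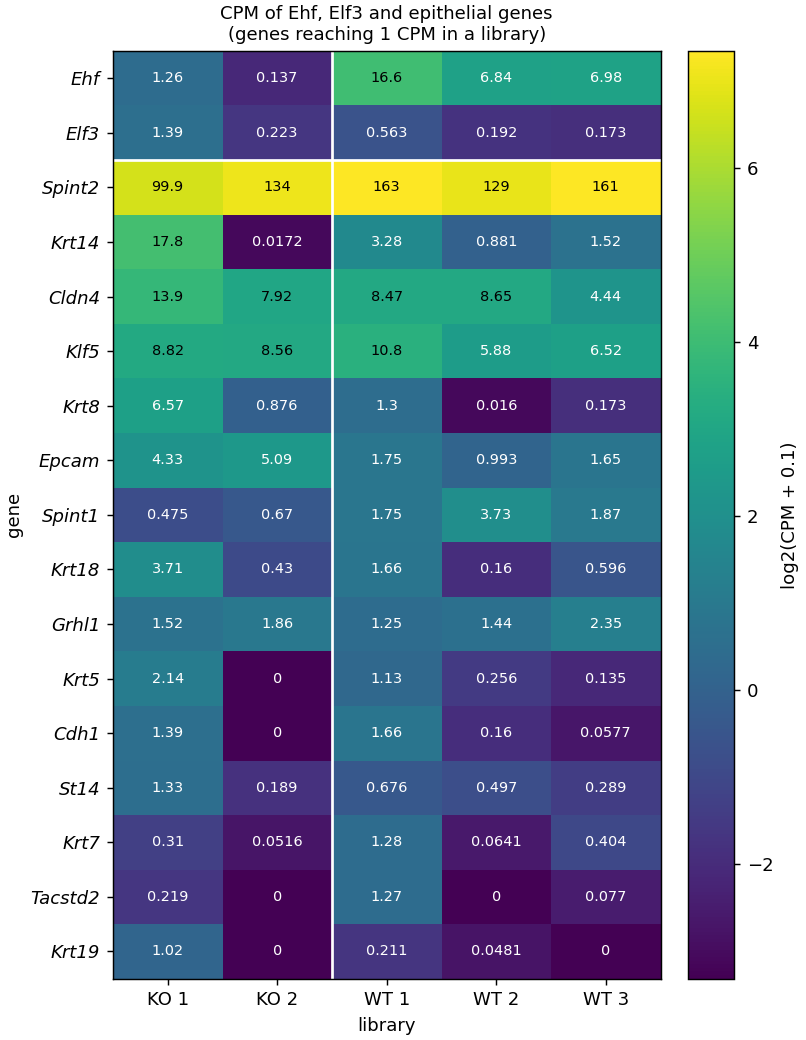
CPM (printed in each cell; colour, log2 of CPM + 0.1) of Ehf, Elf3 and the 15 epithelial genes that reached 1 CPM in at least 1 library, with the 2 KO libraries left of the 3 WT libraries. Ehf is low in both KO columns, whereas Krt14, Krt8, Krt18 and Elf3 are high in KO library 1 and low in KO library 2.

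The genes nearest to Ehf in pattern were found by the root mean square difference of centred log2 CPM over the 5 libraries, among 10729 named genes with a mean log2 CPM of at least 1. The 6 nearest were Coch (0.96 log2 units), Lamb3 (1.13), Cdh11 (1.13), Lrmp (1.23), Map6d1 (1.24) and Col22a1 (1.26). Coch and Col22a1 encode matrix proteins, Lamb3 a laminin chain and Cdh11 a cadherin. For each of the 6, both KO libraries lay below all WT libraries, as for 22.5% of all genes tested. The search looked for the pattern of Ehf, low in KO, in these same libraries, so this follows from the choice. Coch had 32.0 and 31.0 CPM in KO libraries 1 and 2, against 1261, 733 and 735 CPM in WT libraries 1, 2 and 3, and shared with Ehf the high level in WT library 1 but not the gap between the KO libraries.

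Ets1, an ERK-responsive activator, had 807 and 959 CPM in KO libraries 1 and 2, against 1074, 1031 and 1108 CPM in WT libraries 1, 2 and 3. Both KO libraries were below all WT libraries, and the mean was 17.6% lower, at 883 ± 107 CPM in KO (SD, n = 2) and 1071 ± 38.2 CPM in WT (SD, n = 3). The log2 fold change was -0.28 ± 0.11 (SE), -0.17 without KO library 1 and -0.13 with an offset for gene length and GC content. Fli1, its neighbour 93.4 kb away on chromosome 9 and the closest relative of Erg, had 274 and 282 CPM in KO, against 273, 308 and 301 CPM in WT. The groups overlapped, and its log2 fold change was -0.08 ± 0.09 (SE). The log2 ratio of Ets1 to Fli1 within a library was 1.56 and 1.76 in KO, against 1.98, 1.74 and 1.88 in WT, with overlap.

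Of the other members, Elk3 was the one with KO libraries above all WT libraries. Elk3 encodes a ternary complex factor that acts with SRF and represses until ERK phosphorylates it. It had 155 and 142 CPM in KO libraries 1 and 2, against 112, 122 and 101 CPM in WT libraries 1, 2 and 3, with a log2 fold change of 0.41 ± 0.11 (SE). Over the alternatives the value ranged from 0.34 to 0.48. Etv6, a repressor, had 87.2 and 113 CPM in KO, against 122, 128 and 130 CPM in WT, and KO library 1 was the lowest. Its log2 fold change of -0.34 ± 0.12 (SE) was -0.17 without KO library 1 and -0.54 without KO library 2.

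Elf1, an activator in endothelial and blood cells, had 159 and 167 CPM in KO, against 181, 193 and 192 CPM in WT, a log2 fold change of -0.21 ± 0.08 (SE) and -0.12 with the length and GC offset. Elf4, its close relative, had 53.0 and 37.8 CPM in KO, against 47.0, 51.7 and 49.5 CPM in WT. The KO libraries lay on both sides of the WT libraries, and the log2 fold change of -0.12 ± 0.15 (SE) was 0.10 without KO library 2. Reads in overlapping exons cannot be assigned to a strand in these libraries. Such exons made up 6.95% of the exon bases of Elk3 (with Cdk17), 4.85% of Elf1 (with Wbp4) and 2.26% of Etv6 (with Gm17089), and no overlap was annotated for Ehf, Erg, Ets1, Ets2, Fli1 or Elf4.

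Spib was the 1 other ETS gene that passed the test. Of the 15 tested, 0 rose and 1 fell, or 6.67% against 7.24% of all genes, with a median log2 fold change of -0.18. Spib, which drives M cell and B cell programmes, had 76.8 and 99.6 CPM in KO libraries 1 and 2, against 164, 137 and 163 CPM in WT libraries 1, 2 and 3. The groups did not overlap, and it averaged 88.2 ± 16.1 CPM in KO (SD, n = 2) and 155 ± 15.3 CPM in WT (SD, n = 3). The log2 fold change was -0.81 ± 0.14 (SE, adjusted p = 0.026 by edgeR's quasi-likelihood test). The call was lost without each WT library in turn (adjusted p = 0.081, 0.060 and 0.11 without WT libraries 1, 2 and 3), at log2 fold changes of -0.77, -0.89 and -0.77.

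B cells and plasmacytoid dendritic cells also express Spib, and their listed markers were mostly low. The 6 B cell markers summed to 23.8 and 30.4 CPM in KO libraries 1 and 2, against 20.7, 10.8 and 16.0 CPM in WT libraries 1, 2 and 3. Of these, 0 of 5 tested were called and 1 stayed under 1 CPM throughout. Most of the sum was Cd79b, at 15.4 and 21.5 CPM in KO, against 10.9, 7.75 and 12.2 CPM in WT. Immunoglobulin genes were not in the list. Igha had 0.584 and 0.619 CPM in KO, against 118, 5.64 and 7.46 CPM in WT. Ighg2c had 3.29 and 0.670 CPM in KO, against 43.3, 6.79 and 2.21 CPM in WT. Siglech, of plasmacytoid dendritic cells, was at 0.767 and 0.275 CPM in KO and 1.28, 1.78 and 0.519 CPM in WT. Spi1, the ETS factor of macrophages and B cells, was at most 1.05 CPM, in KO library 2, and had a log2 fold change of 0.19 ± 0.47. The part of these cells in the values of Spib was not tested.

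The promoter window of Spib and that of Elk3 are printed because the KO libraries of these genes lay on opposite sides of the WT libraries and, unlike those of Erg, both windows held the kappaB consensus, marked in capitals. The consensus was searched on both strands.
Spib (chr7:44532022-44532321, minus strand): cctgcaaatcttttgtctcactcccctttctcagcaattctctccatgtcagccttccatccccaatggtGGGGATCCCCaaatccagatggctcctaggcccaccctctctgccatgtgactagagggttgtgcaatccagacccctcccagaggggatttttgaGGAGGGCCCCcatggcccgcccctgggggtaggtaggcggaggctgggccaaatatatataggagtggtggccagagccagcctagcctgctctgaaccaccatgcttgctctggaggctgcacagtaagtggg
Elk3 (chr10:93311110-93311409, minus strand): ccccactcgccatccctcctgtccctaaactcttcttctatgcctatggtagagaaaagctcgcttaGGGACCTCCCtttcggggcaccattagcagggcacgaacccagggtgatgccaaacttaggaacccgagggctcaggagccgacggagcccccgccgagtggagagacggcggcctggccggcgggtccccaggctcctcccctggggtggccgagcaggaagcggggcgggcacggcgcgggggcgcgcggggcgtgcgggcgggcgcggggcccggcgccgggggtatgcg
Spib held 2 matches that do not overlap and Elk3 held 1, while Spib had 1 and Elk3 2 GGAA cores. Elf3 held 1 kappaB match in its window, and Elf1, Elf4, Ets2 and Etv6 held 0. Elk4, outside the 10 genes, also held 1 match, in the window of its start 3. Windows were listed for 7 of the 10 genes, with none for Ehf, Ets1 and Fli1. A match describes letters only.

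The remaining family genes did not pass. Etv5, which ERK signalling induces, had 10.8 and 7.68 CPM in KO libraries 1 and 2, against 13.6, 15.8 and 12.8 CPM in WT libraries 1, 2 and 3 (log2 fold change -0.61 ± 0.18, SE, adjusted p = 0.092 by edgeR's quasi-likelihood test). Its groups did not overlap. Elf2 had 89.4 and 94.8 CPM in KO, against 56.2, 72.0 and 82.9 CPM in WT (0.39 ± 0.16), and the ERK-regulated repressor gene Erf had 9.42 and 10.4 CPM in KO, against 5.05, 8.26 and 8.20 CPM in WT (0.47 ± 0.23). Both stood above all WT libraries. The ternary complex factor gene Elk4 had a log2 fold change of -0.26 ± 0.12, Gabpa -0.18 ± 0.09 (with 6.98% of its exon bases shared with Atp5j on the opposite strand), Etv3 0.19 ± 0.11 and Elk1 -0.18 ± 0.17. Of the 17 genes, 8 averaged under 1 CPM in both groups (Elf5, Etv1, Etv2, Etv3l, Etv4, Fev, Spdef and Spi1), and Spic averaged 0.669 CPM in KO and 1.22 CPM in WT.

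**Figure D4:**
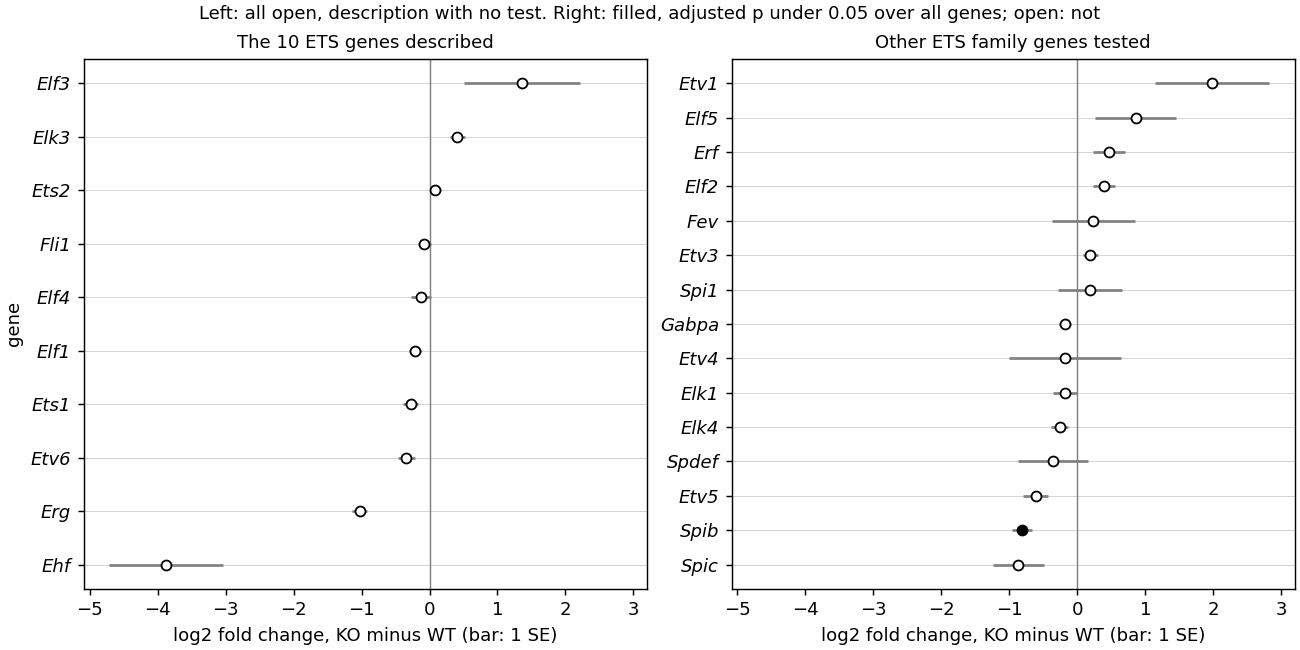
Log2 fold change, KO minus WT, of the 10 ETS genes described (left) and of the 15 other family genes tested (right), with bars of 1 SE; points on the left are all open, and filled points on the right have an adjusted p under 0.05 over all genes. Spib (-0.81) is filled, Ehf (-3.87) lies farthest left, and Ehf, Elf3, Etv1 and Etv4 have wide bars (SE 0.84, 0.85, 0.84 and 0.82).

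Genes that RANKL induces in gut M cells moved both ways in the LECs. Of 9 tested, 1 rose and 2 fell (Gp2 was not tested), or 33.3% against 7.24% of all genes, with a median log2 fold change of -0.12. Both KO libraries lay above all WT libraries for 4 of the 9, against 22.8% of all genes, and below them for 4, against 22.5%. Besides Spib, the chemokine gene Ccl20 fell to 115 and 114 CPM in KO libraries 1 and 2, against 388, 216 and 232 CPM in WT libraries 1, 2 and 3 (-1.28 ± 0.26, SE, adjusted p = 0.036 by edgeR's quasi-likelihood test). Tnfaip2 rose to 422 and 328 CPM in KO, against 261, 239 and 240 CPM in WT (0.61 ± 0.12, SE, adjusted p = 0.038 by edgeR's quasi-likelihood test). Both calls were lost without WT library 2, without WT library 3 and without KO library 1, that of Ccl20 also without KO library 2 and that of Tnfaip2 also without WT library 1. Pglyrp1, an antibacterial protein gene, had 1.19 ± 0.30 and did not pass. On the lower side, Esrrg (-1.35 ± 0.40) and Ccl9 (-0.98 ± 0.32) did not pass either.

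Of 15 endothelial genes known as targets of ETS factors, 1 was higher and 1 lower in KO by the test. These are 13.3% of the list, against 7.24% of all genes, and the median log2 fold change was 0.09. Kdr, which encodes VEGF receptor 2, fell to 1202 and 1152 CPM in KO libraries 1 and 2, against 2026, 1909 and 1793 CPM in WT libraries 1, 2 and 3 (-0.70 ± 0.11, SE, adjusted p = 0.020 by edgeR's quasi-likelihood test). Vwf, the von Willebrand factor gene, rose to 14.5 and 8.49 CPM in KO, against 4.94, 5.59 and 5.71 CPM in WT (1.09 ± 0.24, SE, adjusted p = 0.043 by edgeR's quasi-likelihood test), and stood at 0.64 without KO library 1, where its call was lost. Both lost their call without each WT library, and Kdr also with the length and GC offset (-0.54, adjusted p = 0.052 by edgeR's quasi-likelihood test). The erythroid and endothelial cofactor gene Lmo2 (0.58 ± 0.14) and the tight junction gene Cldn5 (0.43 ± 0.11) had KO libraries above all WT libraries and did not pass, and VE-cadherin (Cdh5) stood at -0.21 ± 0.10. With DESeq2, 5 of the 15 were higher and 1 lower. That method also called more genes over all, with 1204 of 14380 higher and 1457 lower.

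Markers of blood endothelium, a tissue that expresses Erg and several of these targets, were higher in KO. Of the 13 blood endothelial markers, 8 rose and 0 fell, or 61.5% against 7.24% of all genes. The list was chosen with earlier results of these data known, so this count is a description and no test. The 13 summed to 5405 to 5648 CPM in KO and 3695 to 4030 CPM in WT. Most of that sum was Plvap and Cd36, neither of which passed. Plvap had 2786 and 3626 CPM in KO libraries 1 and 2, against 2808, 2455 and 2800 CPM in WT libraries 1, 2 and 3, and the groups overlapped. Cd36 had 2386 and 1708 CPM in KO, against 779, 1444 and 1053 CPM in WT. Gpihbp1 (1.31 ± 0.12), Aqp7 (2.67 ± 0.30), Cd34 (1.94 ± 0.23) and Ly6a (1.43 ± 0.19) had the smallest p. Vwf and Flt1 stand in both lists. Whether these markers came from blood endothelial cells in the sort or from the LECs cannot be told apart in bulk counts, and their part in the values of Erg and of the target genes was not tested.

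The ERK feedback and immediate early list holds genes known to respond to the signalling that acts on Ets1, Ets2 and Elk3. Only their transcripts were counted, and the signalling itself was not measured. By edgeR's quasi-likelihood test 0 of the 17 genes in the list passed, against 7.24% of all genes. Both KO libraries lay above all WT libraries for 2 of the 17, against 22.8% of all genes. They lay below for 6, against 22.5%. With DESeq2, 1 of the 17 was higher and 4 lower, where 1204 of 14380 genes over all were higher and 1457 lower. The members with the smallest p were inhibitors of the pathway and 1 AP-1 gene. Spry2 had 2.25 and 0.894 CPM in KO libraries 1 and 2, against 5.64, 5.21 and 4.42 CPM in WT libraries 1, 2 and 3 (log2 fold change -1.70 ± 0.39, SE). Spred1 stood at -0.54 ± 0.13, Fosb at -0.37 ± 0.09 and Spry4 at -0.45 ± 0.13. The rest of the genes without overlap went both ways. Egr2 (0.70 ± 0.20) and Srf (0.38 ± 0.15) had KO libraries above all WT libraries. Dusp6 (-0.50 ± 0.18) and Spred2 (-0.41 ± 0.15) had them below. The values depended on the KO library kept. Spry2 stood at -2.51 without KO library 1 and -1.19 without KO library 2, and Spred1 at -0.38 and -0.72. The median log2 fold change of the list was -0.34, against 0.00 over all genes tested.

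**Figure D5:**
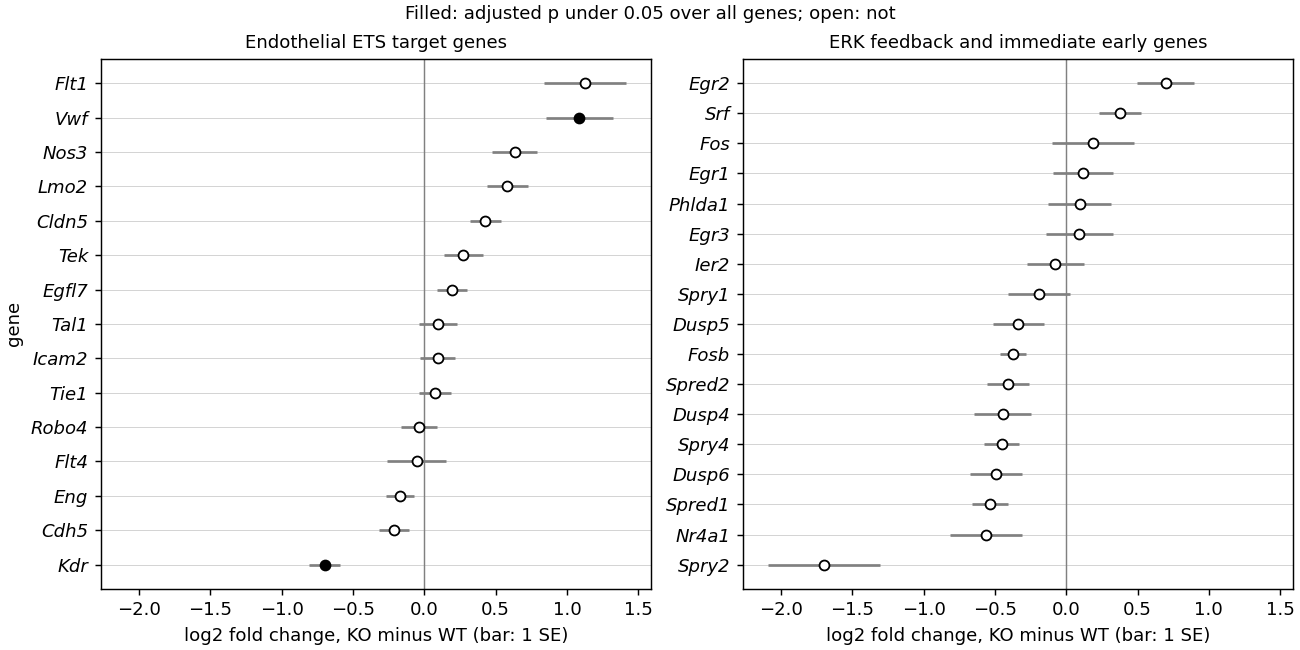
Log2 fold change, KO minus WT, of 15 endothelial ETS target genes (left) and of 17 ERK feedback and immediate early genes (right), with bars of 1 SE; filled points have an adjusted p under 0.05 over all genes. Kdr and Vwf are filled on opposite sides of 0, and Spry2 lies farthest left at -1.70.

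Markers of other lymph node cells were set beside the members. For the counts below, 7.24% of all genes tested were called, with 3.25% higher and 3.99% lower in KO. The sort kept CD45-, TER119-, CD31+ and podoplanin+ cells, a gate that would remove CD45+ leukocytes and CD31- fibroblastic reticular cells. T and NK cell markers, relevant to Ets1, Fli1 and Elf4, summed to 21.8 to 24.1 CPM in KO and 20.2 to 24.0 CPM in WT, with 0 of 9 called. Most of that sum was Lck, at 19.8 and 18.9 CPM in KO and 16.8, 20.8 and 17.0 CPM in WT, and 7 of the 10 markers stayed under 1 CPM. Macrophage markers summed to 31.5 to 35.9 CPM in KO and 35.3 to 38.2 CPM in WT, with 1 of 8 higher and 2 lower. Adgre1 rose to 15 and 20 reads in KO libraries 1 and 2, against 0 reads in every WT library, and Csf1r and Mpeg1 fell. Dendritic cell markers summed to 262 to 301 CPM in KO and 276 to 345 CPM in WT, with 0 of 6 called, and nearly all of it came from Zbtb46, while Cd209a was at 0 reads in both KO libraries. Platelet and megakaryocyte markers, a lineage that uses Fli1 and Erg, summed to 997 to 1261 CPM in KO and 1439 to 2013 CPM in WT, with 0 of 4 tested higher and 3 lower (Clec1b, Gp1ba and Pf4). Most of that sum was Itga2b, whereas Ppbp, Gp9 and Treml1 stayed under 1 CPM. Fibroblastic reticular and mural markers summed to 427 to 901 CPM in KO and 312 to 426 CPM in WT, with 1 of 9 higher (Acta2, at 35.8 and 4.50 CPM in KO and 1.87, 1.76 and 1.94 CPM in WT). The part of these cells in the values of Erg, Ets1 or Etv6 was not tested.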

How the data were processed

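RNA of CD45-, TER119-, CD31+ and podoplanin+ cells was made into full-length cDNA (SMART-Seq v4, 4 ng of RNA, 10 cycles) and tagmented libraries (Nextera XT, 12 cycles), read as 50-base single reads, per the labels' protocols. These kits do not mark strand. The table deposited by the authors holds raw read counts per Ensembl gene for each library, per the file headers. Tools in the submitters' processing notes are HTSeq 0.6.1, Bowtie2 2.1.0, TopHat2 2.0.14 and bcl2fastq 2.17.1.14, with the build mm10. The annotation used in counting, and how reads with several hits were treated, is not given in the sources used here. Of 27843 genes, 27648 matched GENCODE M21 or its name table by identifier.

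The test was edgeR 4.0.16 in R 4.3.3 (filterByExpr with a minimum count of 10, TMM, robust quasi-likelihood F test in its legacy form, all 5 libraries, KO against WT). P-values were adjusted by Benjamini-Hochberg over 15874 genes, at 0.05, and measure the spread between these libraries. Each SE is the size of the log2 fold change over the root of its F statistic. The procedure was also run on simulated counts, drawn from a mean per gene and group with the fitted spread. These held no batch or mixture of cells particular to a library, so that run says nothing about such unevenness. The members, lists and tests were chosen with earlier results of these data known. Named genes were all family genes, up to 4 of each other list with the smallest p and the 6 nearest to Ehf; others named were chosen after their values were seen. Alternatives were RLE factors, library totals alone, no filter, DESeq2 1.42.0, the replicate number as a block, a loess offset on exon length and GC share and each library left out. Promoters are from RefSeq (GRCm38.p6), and exon lengths are from GENCODE.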

Additional observations from a re-analysis of the deposited data

How the results depend on the processing

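The count of the 10 ETS genes past the threshold was 2 and became 1 with library totals alone and 3 with DESeq2 (1 higher, 2 lower), stayed at 2 with no filter (1 higher, 1 lower), and ranged from 0 to 2 with 1 library left out. The count of other ETS family genes was 1 and became 2 with DESeq2, with a range of 0 to 3. Endothelial ETS targets numbered 2 and became 1 with library totals alone, 5 with no filter on low counts, 6 with DESeq2 and 1 with the length and GC offset, with a range of 0 to 3. Epithelial genes numbered 2, with a range of 0 to 2. ERK feedback and immediate early genes numbered 0 and became 4 with no filter and 5 with DESeq2, with a range of 0 to 7. With the replicate block, 0 genes passed in each of these lists and 0 over all genes. The labels do not say that a number marks a shared litter or batch. The deviations of same-numbered libraries correlated at 0.048 and -0.052, but with 2 KO libraries the deviations mirror each other, so these values do not tell whether a litter or batch was shared.

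Over all genes, 516 were higher and 634 lower. DESeq2 gave 1204 higher and 1457 lower, the length and GC offset 403 and 343, and leaving out WT library 1, 2 or 3 left 135 and 131, 78 and 95, and 2 and 9.

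Of 850 pairs of a named gene and an alternative, 694 kept direction and side of the threshold, 110 lost the call, 35 gained it and 11 reversed. With the length and GC offset, Fev reversed to -0.016 and Zbtb46 to 0.0084 log2 units. The log2 fold changes that reversed with a library left out ranged from -0.49 to 2.13 (Elf3), -0.39 to 0.10 (Elf4), -0.44 to 0.032 (Elk1), -2.38 to 0.66 (Etv4), -0.17 to 0.67 (Fev), -0.42 to 0.61 (Spi1), -0.73 to 1.139 (Cd3d) and -1.85 to 2.30 (Flt3). The cause was not tested. Of these 8 genes, 6 had under 100 reads in every library, which limits their precision, and 2 KO libraries limit every comparison.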
